A study of Homo sapiens with 10 samples.

Results

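The kinase P-TEFb, its 7SK-bound inhibitor complex and a pair of elongation partners were followed through 9 genes in RPE-1 cells treated with sulforaphane (SFN). The genes were HEXIM1, HEXIM2, LARP7, MEPCE, CDK9, CCNT1, CCNT2, AFF4 and ELL2, taken by gene symbol from the 28380 genes with deposited counts. All 9 passed the low-count filter, which left 13378 genes for testing. The group was put together when the difference between SFN and the vehicle was already known for these cells, with the fall of HEXIM1 in view. The differences of the 9 genes are therefore given as a description, with no p-value, and none of them is offered as support for a choice that rested on them.

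RPE-1 is an established human retinal pigment epithelial line that was immortalized with telomerase. Cells in complete medium received 25 µM SFN, an isothiocyanate from cruciferous vegetables, or the vehicle DMSO for 4 h, with 5 replicates in each group. RNA from each replicate was sequenced as a library of its own. The general methods describe the replicates of all experiments as independent. The RNA-seq methods give each replicate cells of its own but also account for repeated-measure dependencies, which they do not define. Neither the methods nor the labels give a culture or day for each library. The errors below therefore measure the spread between these libraries, which may in part be technical.

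P-TEFb pairs the kinase CDK9 with cyclin T1 or cyclin T2 and phosphorylates RNA polymerase II and the factors that hold it paused near gene starts, which lets the polymerase move into productive elongation. Much of the P-TEFb in a cell is kept inactive on the 7SK small nuclear RNA. There, HEXIM1 or HEXIM2 inhibits the kinase, LARP7 binds the end of the RNA, and MEPCE caps and holds it. Stress and other signals release P-TEFb from this store, and AFF4 and ELL2 belong to the super elongation complex in which active P-TEFb works.

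Total counts ranged from 15689294 to 20666692 in the DMSO libraries and from 12375860 to 17308706 in the SFN libraries. DMSO replicate 1 stood apart from the other DMSO libraries, with a mean Spearman correlation of 0.935 to them, against 0.979 to 0.982 for the others. Gene levels in it, relative to the mean of all libraries, fell by 0.271 on the log2 scale for each doubling of transcript length. The same slope was -0.183 in SFN replicate 2 and 0.109 in SFN replicate 5. It was 0.0872 to 0.148 in DMSO replicates 2 to 5, and -0.0574 to -0.0355 in SFN replicates 1, 3 and 4. Only SFN replicate 5 lay in the range of DMSO replicates 2 to 5. Leaving out DMSO replicate 1 therefore does not make the groups alike in this slope. Values without DMSO replicate 1 are given beside the results, and values without SFN replicate 2 or 5 beside the genes that they moved most. Of 13 marker genes of retinal pigment epithelium and pigment cells, 5 passed the low-count filter, namely PAX6, OTX2, MITF, BEST1 and PMEL, while RPE65 had at most 3 counts and RLBP1 at most 4 counts in a library. All 5 mesenchymal markers passed, and so did 3 of 6 epithelial markers (KRT7, KRT8 and KRT18). KRT19 had at most 5 counts and EPCAM at most 2 counts in a library, CDH1 was not analysed here, and none of 6 blood and endothelial markers passed the filter.

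HEXIM1, the main inhibitor of P-TEFb, lies on chromosome 17 of GRCh38 from 45148475 to 45152099 on the plus strand and has a single exon of 3625 bases (ENSG00000186834). The 250 bases before its start, at chr17:45148225-45148474 on the plus strand, are shown because HEXIM1 had the largest log2 difference between the groups among the 9 genes. They were taken from RefSeq (GRCh38.p14). Capitals mark exact matches, searched on both strands, to the TATA box (TATAAA), the CCAAT box (CCAAT) and the GC box (GGGCGG). The E box (CACGTG), the core of ETS sites (CGGAAG) and the cyclic AMP response element (TGACGTCA) were also searched and had no match in this window.
HEXIM1 upstream: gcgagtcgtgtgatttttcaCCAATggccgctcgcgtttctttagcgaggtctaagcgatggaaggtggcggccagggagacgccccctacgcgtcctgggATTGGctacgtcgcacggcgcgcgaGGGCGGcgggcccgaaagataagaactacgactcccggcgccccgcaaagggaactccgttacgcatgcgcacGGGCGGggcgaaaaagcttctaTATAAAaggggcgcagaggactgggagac
The TATAAA match began 29 bases before the start. HEXIM1 was the only 1 of the 8 genes with an entry in the promoter table whose upstream windows held this match, and 10.7% of all 35116 windows of this length held it. The window also held a CCAAT match on each strand, 230 and 149 bases before the start, and GGGCGG matches at 124 and 51 bases. Across all windows, 32.0% held CCAAT and 42.6% held GGGCGG. These matches describe letters and not bound sites. The table held no entry for ELL2.

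HEXIM1 had 1263, 1641, 1472, 1239 and 1227 counts in DMSO replicates 1 to 5 and 308, 206, 247, 312 and 263 counts in SFN replicates 1 to 5. Scaled by the TMM method and given as CPM, the counts in a library of fixed standard size, this was 78.7, 74.8, 82.3, 74.6 and 72.6 CPM in DMSO and 18.4, 17.8, 18.4, 21.1 and 18.6 CPM in SFN. Every SFN library lay far below every DMSO library, and DMSO replicate 1 did not stand out here. The DMSO mean was 76.6 ± 3.86 CPM (SD, n = 5) and the SFN mean 18.8 ± 1.28 CPM (SD, n = 5), which was 4.07-fold lower, with a fitted log2 fold change of -2.02 and a standard error (SE) of 0.10. The log2 fold change stayed between -2.07 and -2.0 when each library was left out in turn. In bulk RNA, fewer cells that express a gene and less of its RNA per cell cannot be told apart, and CPM values show shares of each library rather than amounts per cell.

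HEXIM2, the paralog of HEXIM1 that can take its place on 7SK, begins 8600 bases downstream of it on the same strand, from 45160700 to 45170040 (ENSG00000168517). It was much less abundant, with 52, 68, 60, 31 and 43 counts in the DMSO libraries and 33, 8, 17, 19 and 14 counts in the SFN libraries. The level went from 2.82 ± 0.617 CPM (SD, n = 5) to 1.24 ± 0.473 CPM (SD, n = 5), a level 2.24-fold lower (log2 fold change -1.16, SE 0.28). The groups overlapped by a single pair of libraries, since SFN replicate 1 had 1.97 CPM and DMSO replicate 4 had 1.87 CPM. Without SFN replicate 1 the HEXIM2 log2 fold change was -1.40, and without SFN replicate 2 it was -1.02. At these counts, counting error is a large part of the spread. The antisense gene HEXIM2-AS1 overlaps both HEXIM genes and had at most 13 counts in a library, and the use of strand in counting is not given in the sources used here.

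CDK9, the kinase subunit of P-TEFb, lies on chromosome 9 from 127785679 to 127790792 on the plus strand (ENSG00000136807). It had 30.1, 29.6, 31.8, 31.3 and 33.2 CPM in DMSO replicates 1 to 5 and 10.4, 12.2, 10.7, 12.5 and 10.7 CPM in SFN replicates 1 to 5. The groups did not overlap, and the highest SFN library held well under the lowest DMSO library. The mean went from 31.2 ± 1.43 CPM (SD, n = 5) to 11.3 ± 0.957 CPM (SD, n = 5), a level 2.76-fold lower (log2 fold change -1.47, SE 0.10). With any 1 library left out, the value was between -1.50 and -1.44. The counts behind it were 483 to 650 in the DMSO libraries and 141 to 185 in the SFN libraries.

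**Figure D1:**
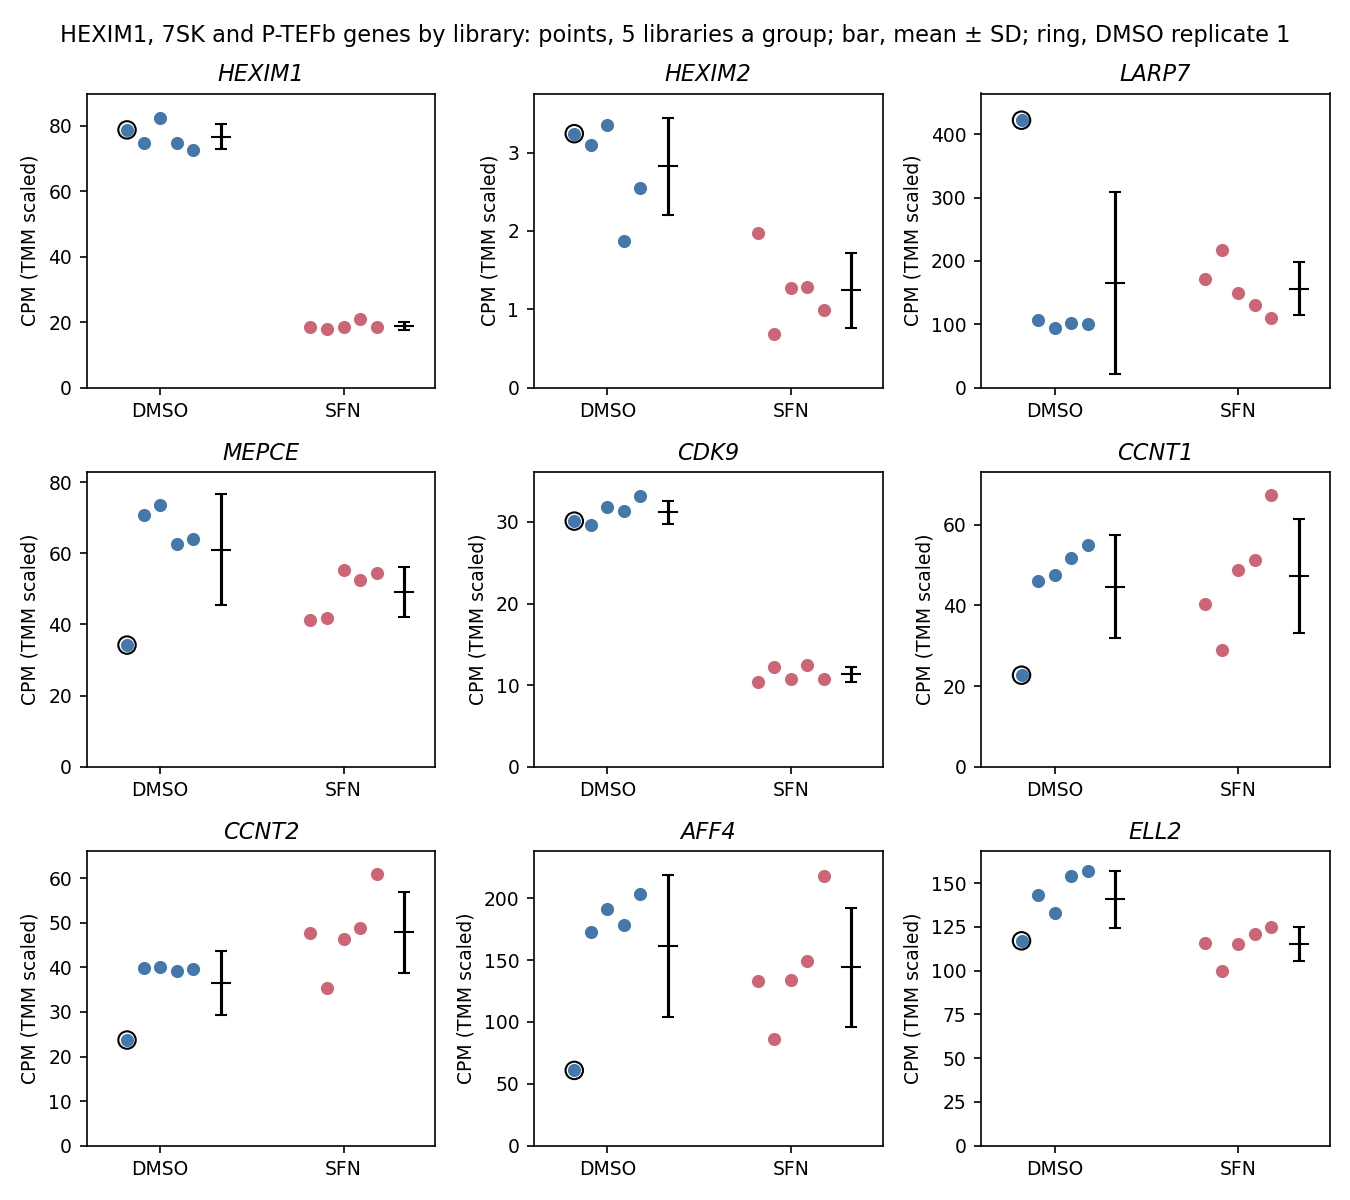
CPM of the 9 genes in each library (vertical axis from 0, TMM scaled), with 5 DMSO points and 5 SFN points per panel, the mean ± SD beside them and a ring around DMSO replicate 1. In HEXIM1 the SFN libraries sit between 17.8 and 21.1 CPM and the DMSO libraries between 72.6 and 82.3 CPM, while in LARP7, MEPCE, CCNT1, CCNT2 and AFF4 the ringed library lies away from the other DMSO libraries.

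LARP7, the La-related protein that stabilizes 7SK, lies on chromosome 4 from 112637077 to 112657696. It had 422 CPM in DMSO replicate 1 and 94.5 to 106 CPM in the other DMSO libraries, and 172, 218, 149, 131 and 110 CPM in SFN replicates 1 to 5. DMSO replicate 1 was thus above every SFN library, and the other DMSO libraries were all below every SFN library. With all libraries the log2 fold change was -0.08 (SE 0.42). Without DMSO replicate 1 it was 0.63 (SE 0.15), from 101 ± 4.79 CPM (SD, n = 4) to 156 ± 41.3 CPM (SD, n = 5). In that fit most SFN libraries also differed from the DMSO libraries in the slope with transcript length. The highest SFN level, 218 CPM, was in SFN replicate 2 (slope -0.183). The lowest, 110 CPM, was in SFN replicate 5 (slope 0.109), the SFN library most like DMSO in slope. With all libraries and a correction for the length slope of each, the LARP7 log2 fold change was -0.08 (SE 0.37). The correction was not run without DMSO replicate 1, so how far the LARP7 difference of 0.63 goes with this slope was not tested. With DMSO replicate 1 kept, the LARP7 value was also above 0 by limma-voom (0.16), with the replicate block (0.20) and without SFN replicate 5 (0.02), each within its SE of 0.

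MEPCE, the methyltransferase that caps 7SK, lies on chromosome 7 from 100428322 to 100434126. It had 34.2 CPM in DMSO replicate 1, 62.7 to 73.5 CPM in the other DMSO libraries and 41.2, 41.9, 55.3, 52.6 and 54.4 CPM in the SFN libraries. The SFN libraries lay between DMSO replicate 1 and the rest of the DMSO group. The log2 fold change was -0.31 (SE 0.19) with all libraries and -0.47 (SE 0.11) without DMSO replicate 1. GENCODE places another protein-coding gene, ENSG00000289690, over MEPCE on the same strand.

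CCNT1 and CCNT2 encode the cyclins that activate CDK9. CCNT1, on chromosome 12 from 48688458 to 48716998, had 22.7, 46.2, 47.6, 51.8 and 55.0 CPM in the DMSO libraries and 40.3, 29.0, 48.9, 51.4 and 67.3 CPM in the SFN libraries. The groups overlapped, with DMSO replicate 1 below every SFN library and SFN replicate 5 above every DMSO library. The log2 fold change was 0.08 (SE 0.25), and it was -0.09 (SE 0.18) without DMSO replicate 1, 0.22 without SFN replicate 2 and -0.07 without SFN replicate 5. CCNT2, on chromosome 2 from 134918235 to 134959342, had 23.7 CPM in DMSO replicate 1 and 39.1 to 40.1 CPM in the other DMSO libraries. In SFN it had 47.7, 35.3, 46.4, 48.9 and 61.0 CPM, and SFN replicate 2 was the only SFN library below those 4 DMSO libraries. The CCNT2 log2 fold change was 0.39 (SE 0.18), 0.27 (SE 0.12) without DMSO replicate 1, 0.49 without SFN replicate 2 and 0.29 without SFN replicate 5. Neither cyclin gene passed the threshold in any of these fits.

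AFF4, the scaffold of the super elongation complex, lies on chromosome 5 from 132875395 to 132963634 and had 60.8, 173, 191, 178 and 203 CPM in the DMSO libraries. In SFN it had 133, 85.8, 134, 149 and 218 CPM, the lowest value being that of DMSO replicate 1 and the highest that of SFN replicate 5. Its log2 fold change was -0.16 (SE 0.31), -0.38 (SE 0.19) without DMSO replicate 1, -0.02 without SFN replicate 2 and -0.36 without SFN replicate 5. ELL2, an elongation factor of the same complex, lies on chromosome 5 from 95885098 to 95961851. It had 117, 143, 133, 154 and 157 CPM in DMSO and 116, 99.7, 115, 121 and 125 CPM in SFN. The overlap came from DMSO replicate 1, and the log2 fold change was -0.29 (SE 0.11) with it and -0.35 (SE 0.09) without it.

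**Figure D2:**
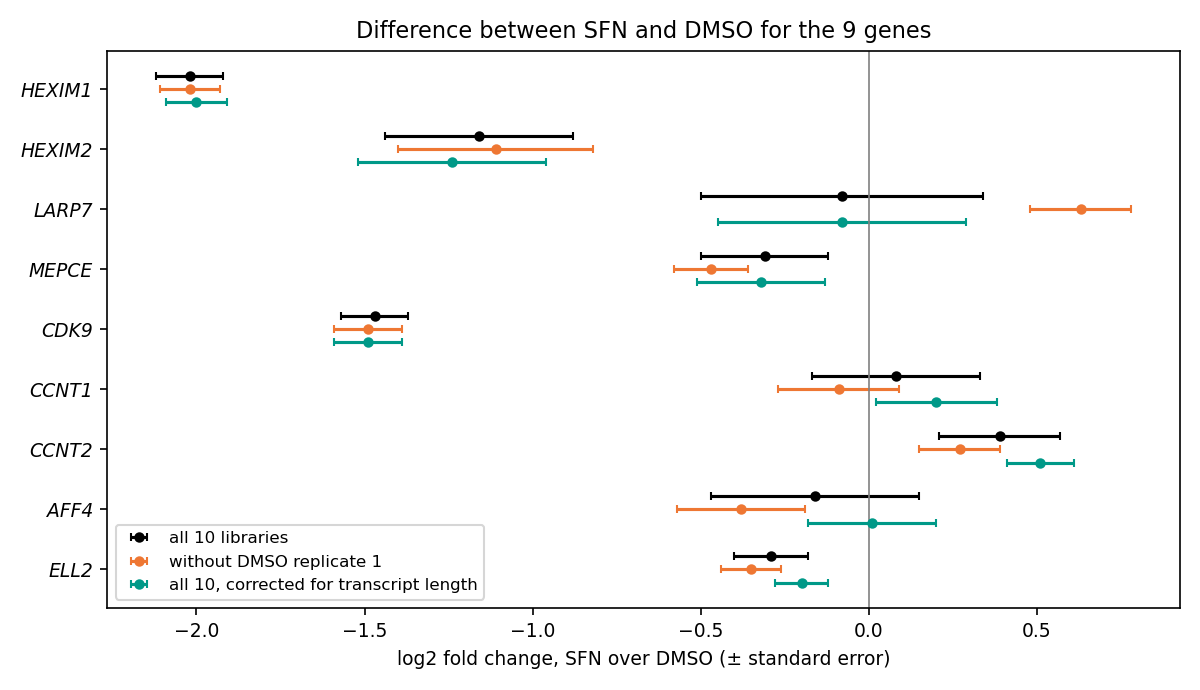
Log2 fold change of SFN over DMSO (horizontal axis) for each of the 9 genes, with bars of 1 standard error, from all 10 libraries, without DMSO replicate 1, and with a correction for transcript length. HEXIM1 stays near -2.02 and CDK9 near -1.47 in all 3, whereas LARP7 moves from -0.08 to 0.63 when DMSO replicate 1 is left out.

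The spread within groups followed transcript length in part of these genes. The canonical transcripts of AFF4, CCNT2, CCNT1 and ELL2 were 9536, 6920, 6788 and 5826 bases long. Relative to the mean of the other DMSO libraries, DMSO replicate 1 was lower by a log2 difference of -1.61 in AFF4, -0.74 in CCNT2, -1.13 in CCNT1 and -0.32 in ELL2. SFN replicate 2 was lower than the other SFN libraries in the same 4 genes, by -0.85, -0.52, -0.82 and -0.26. SFN replicate 5 was higher in all 4, by 0.83, 0.46, 0.70 and 0.15. HEXIM1, with 3625 bases, deviated by 0.05, -0.10 and -0.02 in these 3 libraries, and CDK9, with 2483 bases, by -0.06, 0.14 and -0.09. Length does not order all 9 genes, since MEPCE, with 2822 bases, was also low in DMSO replicate 1, by -0.98, and in SFN replicate 2, by -0.27. HEXIM2, with 1436 bases and few counts, deviated by 0.28, -0.84 and -0.28 in the same 3 libraries. LARP7, with 2107 bases, was higher by 2.07 in DMSO replicate 1 and by 0.65 in SFN replicate 2. A correction for the length slope of each library was chosen after seeing the data. With it, the log2 fold change was -2.0 (SE 0.09) for HEXIM1, -1.49 (SE 0.10) for CDK9, 0.51 (SE 0.10) for CCNT2 and 0.01 (SE 0.19) for AFF4. It was -0.08 (SE 0.37) for LARP7 and -0.32 (SE 0.19) for MEPCE, against -0.08 (SE 0.42) and -0.31 (SE 0.19) without the correction. For HEXIM2, CCNT1 and ELL2 the corrected values were -1.24 (SE 0.28), 0.2 (SE 0.18) and -0.2 (SE 0.08).

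**Figure D3:**
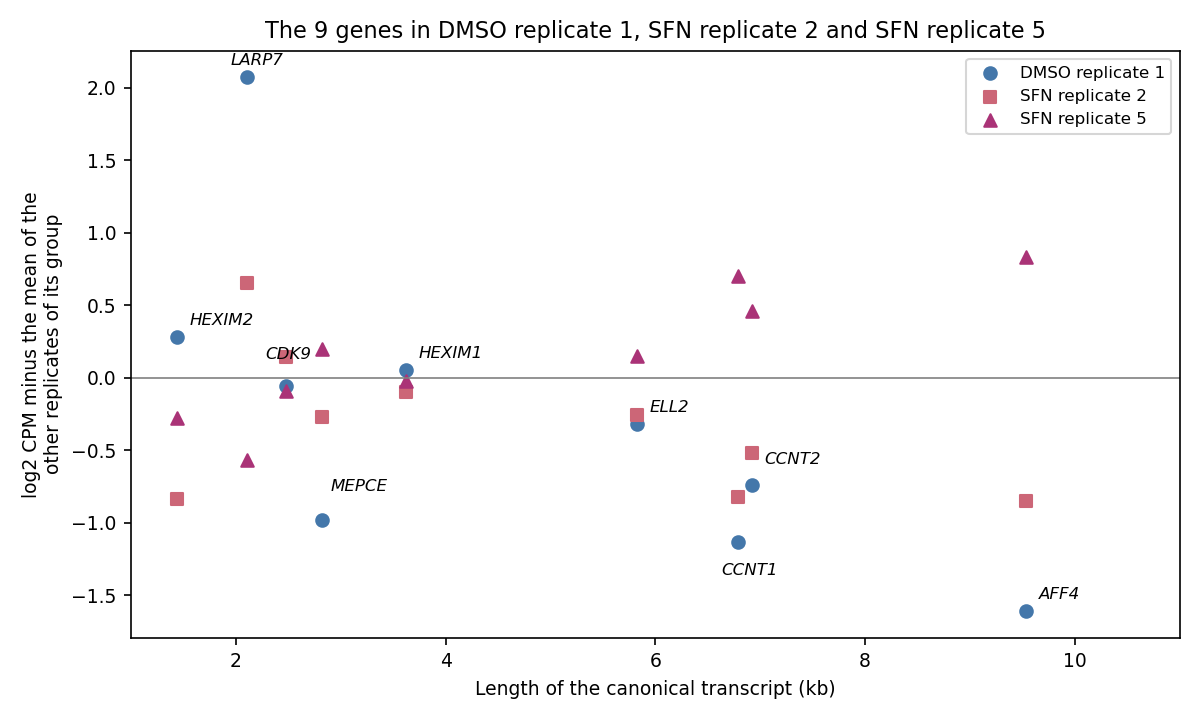
Log2 CPM of each of the 9 genes minus the mean of the other replicates of its group (vertical axis) against the length of its canonical transcript in kb, for DMSO replicate 1, SFN replicate 2 and SFN replicate 5. The 4 longest transcripts lie below 0 in DMSO replicate 1 and SFN replicate 2 and above 0 in SFN replicate 5, while HEXIM1 lies within 0.10 of 0 in all 3.

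Counted by edgeR's quasi-likelihood test at an adjusted p under 0.05, 3 of the 9 genes were decreased (HEXIM1, HEXIM2 and CDK9) and 0 were increased. Over all 13378 genes tested, 13.9% were decreased and 9.07% increased, a split of 1862 to 1214 that became 2163 to 819 when only library size was used for scaling. The same 3 genes were decreased over 2-fold, as were 5.76% of all genes tested, against 2.94% increased over 2-fold. HEXIM1 and CDK9 were lower in every SFN library than in every DMSO library, as were 11.1% of all genes tested. No gene of the 9 was higher without overlap, against 8.78% of all genes tested. Since the choice of the 9 genes rested on this contrast, nothing is read from these counts. HEXIM1, HEXIM2 and CDK9 were called in 20 of 20 alternative analyses. Without DMSO replicate 1 the count was 5 decreased, with MEPCE and ELL2 added, and 1 increased, LARP7. In that fit, where the length slope still differed between the DMSO libraries and most SFN libraries, 23.5% of all genes were decreased and 22.5% increased. CCNT2 was called increased with the length correction, where 12.0% of all genes were. The median log2 fold change was -0.29 over the 9 genes and -0.028 over all tested genes.

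Ratios within a library compare partners in the same RNA. Per kb of transcript, the ratio of HEXIM1 to CDK9 counts ranged from 1.5 to 1.79 in the DMSO libraries (median 1.73) and from 1.0 to 1.21 in the SFN libraries (median 1.17), without overlap. The ratio of CDK9 to CCNT1 counts per kb ranged from 1.65 to 3.62 in DMSO and from 0.436 to 1.15 in SFN, and that of CDK9 to CCNT2 from 2.08 to 3.54 and from 0.490 to 0.961. The kinase gene had fewer reads per kb than either cyclin in most SFN libraries and more in every DMSO library. This order in DMSO rests on the scaling by length. In counts, CDK9 had 520 to 650 in DMSO replicates 2 to 5, below CCNT1 (852 to 1015) and CCNT2 (649 to 873) in each. Only in DMSO replicate 1 did CDK9 have more counts, 483 against 365 and 380. The ratio of HEXIM1 to MEPCE counts per kb ranged from 0.824 to 1.79 in DMSO and from 0.259 to 0.347 in SFN, and that of HEXIM1 to LARP7 from 0.108 to 0.506 and from 0.0474 to 0.0979. The lowest DMSO value of the last ratio was that of DMSO replicate 1. This library also set the top of the DMSO range for CDK9 to CCNT1 (3.62), CDK9 to CCNT2 (3.54) and HEXIM1 to MEPCE (1.79). The middle DMSO values of these ratios were much lower, at 1.75, 2.23 and 0.884, so the width of each range owes much to that library. The ratio of HEXIM1 to HEXIM2 overlapped between the groups, with 9.56 to 15.8 in DMSO and 3.70 to 10.2 in SFN. The methods name libraries of 3′ ends, whose counts need not grow with length. The size of a ratio, and which gene of a pair is the higher, therefore depend on the scaling by length. The fold difference of a ratio between the groups does not.

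**Figure D4:**
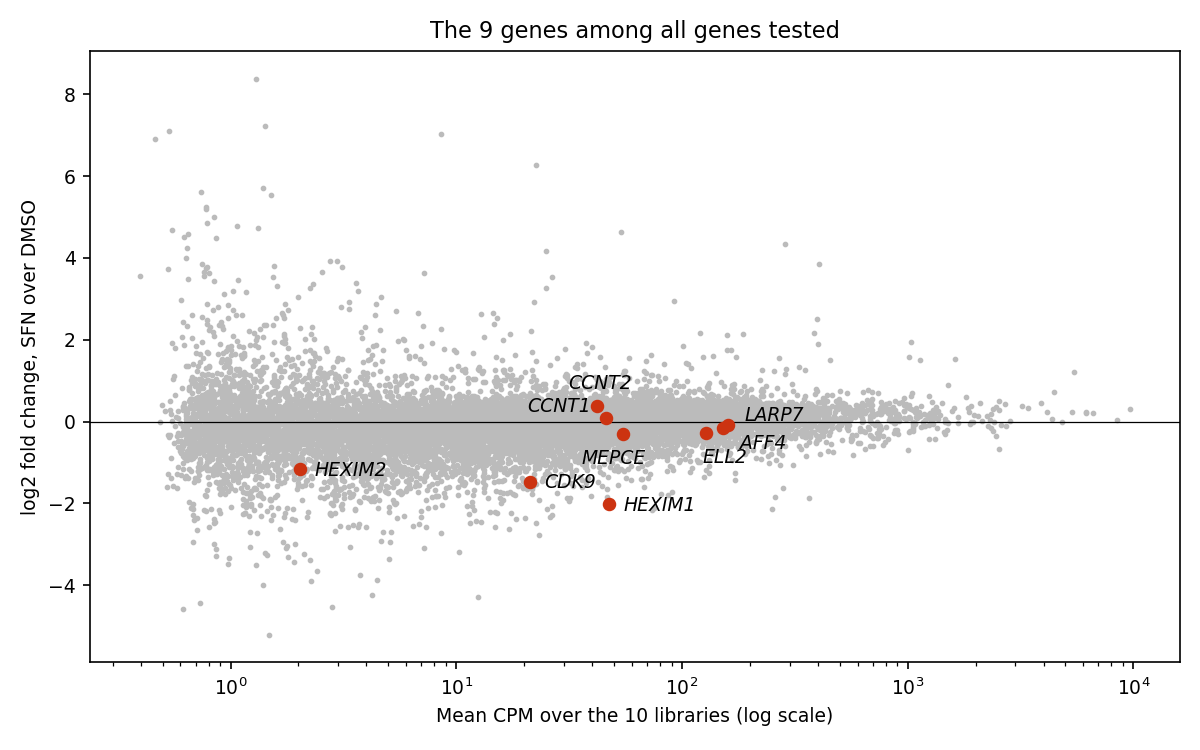
Log2 fold change of SFN over DMSO (vertical axis) against the mean CPM over the 10 libraries (horizontal log axis) for all 13378 genes tested in grey and the 9 genes in red. HEXIM1 at -2.02 and CDK9 at -1.47 lie among the 5.76% of genes decreased over 2-fold, and LARP7, AFF4 and CCNT1 lie near 0.

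The genes with the pattern closest to HEXIM1 over the 10 libraries were sought among 10031 others with a mean of at least 5 CPM, by the root mean square difference of log2 CPM after subtracting the DMSO mean of each gene. They were IRX3, a homeobox transcription factor (difference 0.113), IRF1, a transcription factor of the interferon response (0.159), the antisense RNA gene TRHDE-AS1 (0.188), AHDC1 (0.198) and ALDH1B1, a mitochondrial aldehyde dehydrogenase (0.205). IRX3 went from 18.8 ± 1.94 CPM (SD, n = 5) to 4.55 ± 0.294 CPM (SD, n = 5), with a log2 fold change of -2.05 against -2.02 in HEXIM1. Since the root mean square difference takes in the treatment difference, it picks genes with a fold change near that of HEXIM1. The same measure was 0.407 between HEXIM1 and CDK9, and it takes in the gap between their log2 fold changes (-2.02 and -1.47). By Pearson correlation over the 10 libraries, which ignores the size of the change and is set mostly by the treatment difference that the libraries share, IRX3 was the only 1 of these 5 again among the closest 5. Pearson's r was 0.993 between HEXIM1 and CDK9, a description over 10 libraries in 2 groups.

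Other genes of transcription elongation, further transcription cyclins and kinases, and La-related genes were grouped into 7 lists by role or family. Not all of them act in elongation, and they are called other elongation genes below for short. Of 89 such genes tested, 7 were increased and 10 decreased by edgeR's quasi-likelihood test with adjustment over all genes tested, which was close to the 9.07% and 13.9% of all genes in each direction. Their median log2 fold change was -0.01. Without DMSO replicate 1 the counts were 21 increased and 18 decreased, in a fit that called 22.5% of all genes increased and 23.5% decreased.

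Of 16 genes that recruit P-TEFb or release it from 7SK, 1 was increased and 2 were decreased (median log2 fold change -0.06). JMJD6, an oxygenase that acts in the release of P-TEFb, lies on chromosome 17 from 76712832 to 76726799 and rose from 44 ± 2.85 CPM (SD, n = 5) in DMSO, with a range of 39.7 to 47.2, to 158 ± 10.3 CPM (SD, n = 5) in SFN, with a range of 143 to 170. Its log2 fold change was 1.85 (SE 0.10, edgeR adjusted p = 2.8e-07), and it rose in all of the 20 alternative analyses. SYNCRIP, an RNA-binding protein found on 7SK, fell from a DMSO mean of 707 ± 37.7 CPM to an SFN mean of 494 ± 57.5 CPM (-0.52 on the log2 scale, SE 0.11, edgeR adjusted p = 0.0046). The 7SK RNA itself was not analysed here.

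Of 7 other super elongation complex genes, 1 was increased and 1 decreased (median -0.21). EAF1, a partner of the ELL proteins, on chromosome 3 from 15427598 to 15450635, was at 32.2 to 38.2 CPM in DMSO and 71.7 to 83.1 CPM in SFN, a rise of 1.13 on the log2 scale (SE 0.09, edgeR adjusted p = 8.4e-06). MLLT3 fell without overlap from 13.8 ± 0.927 to 9.75 ± 1.21 CPM (-0.50 on the log2 scale, edgeR adjusted p = 0.011). AFF1, the relative of AFF4, had a log2 fold change of 0.08 (SE 0.25), which did not pass the threshold.

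Of 15 other cyclins and kinases of transcription, 1 was increased and 2 were decreased (median 0.15). CDK12, which phosphorylates the polymerase tail later in elongation, lies on chromosome 17 from 39461486 to 39567559. It had 35.4 CPM in DMSO replicate 1, 106 to 114 CPM in the other DMSO libraries and 28.2 to 48.3 CPM in SFN, and fell by 1.39 on the log2 scale (SE 0.28, edgeR adjusted p = 0.0041). Of 12 polymerase II subunits, 0 were increased and 1 decreased (median 0.01). This was POLR2A, the catalytic subunit whose tail P-TEFb phosphorylates, with 39.7 CPM in DMSO replicate 1, 175 to 190 CPM in the other DMSO libraries and 49.2 to 109 CPM in SFN (-1.14 on the log2 scale, edgeR adjusted p = 0.041). Without DMSO replicate 1 the log2 fold change was -1.61 for CDK12 and -1.38 for POLR2A.

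Of 19 pausing and elongation factors, 1 was increased and 3 were decreased (median -0.09). POLR2M, whose locus overlaps a readthrough gene, rose from 22.2 ± 1.84 to 35.9 ± 5.16 CPM (0.69 on the log2 scale, edgeR adjusted p = 0.0015). LEO1, a subunit of the PAF1 complex, fell by 0.83 on the log2 scale (SE 0.21, edgeR adjusted p = 0.014), and by 0.56 without DMSO replicate 1. NELFA, a subunit of the pausing factor NELF, fell from 12.5 ± 2.12 to 8.41 ± 0.596 CPM (-0.57 on the log2 scale, edgeR adjusted p = 0.011). Of 14 subunits of Integrator, the complex that ends transcription of paused polymerases, 2 were increased and 1 decreased (median 0.02). INTS5, on chromosome 11 from 62646848 to 62653302, had 4.24 to 5.31 CPM in SFN against at least 8.66 CPM in DMSO, a log2 fold change of -1.06 (SE 0.14, edgeR adjusted p = 1.9e-04). INTS2 rose by 0.84 (SE 0.19, edgeR adjusted p = 0.0073) and INTS14 by 0.50 (SE 0.12, edgeR adjusted p = 0.011) on the same scale. Of 6 La and La-related genes, 1 was increased and 0 decreased (median 0.05).

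The other called genes lay close to the threshold. BRD3 (log2 fold change -0.44, edgeR adjusted p = 0.038), IWS1 (-0.33, edgeR adjusted p = 0.033), CDK10 (-0.45, edgeR adjusted p = 0.046), CCNL1 (0.31, edgeR adjusted p = 0.045) and LARP4 (0.58, edgeR adjusted p = 0.0498) were called in 11, 11, 9, 6 and 7 of 20 alternatives. POLR2A was called in 10 of 20.

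**Figure D5:**
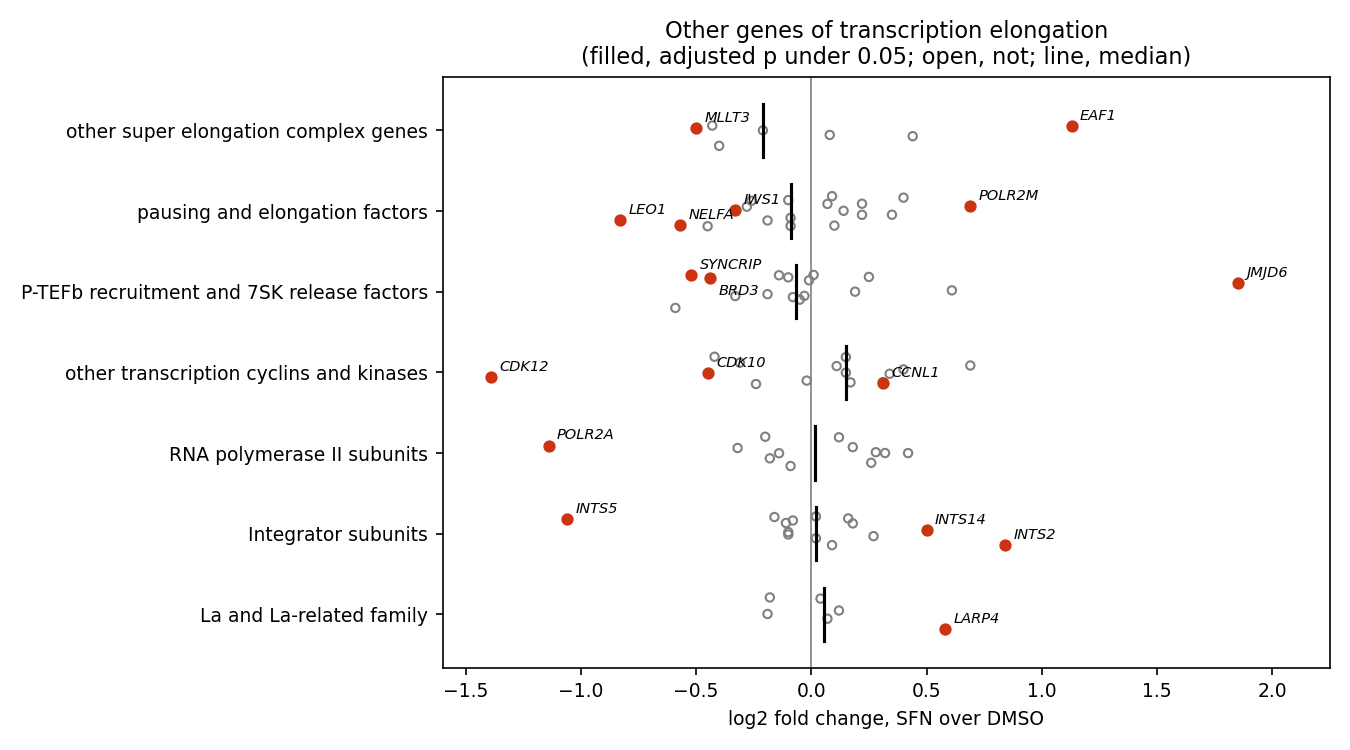
Log2 fold change of SFN over DMSO (horizontal axis) for the 89 other elongation genes in 7 lists, not all of which act in elongation. Points are filled where the adjusted p was under 0.05 and open where it was not. A line marks the median of each list. JMJD6 at 1.85 and EAF1 at 1.13 lie farthest to the right, CDK12 at -1.39, POLR2A at -1.14 and INTS5 at -1.06 farthest to the left, and the list medians lie between -0.21 and 0.15.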

How the data were processed

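RNA of 10 libraries (5 DMSO, 5 SFN) was sequenced by the authors as Lexogen QuantSeq, aligned with the Bluebee pipeline and deposited as raw counts per Ensembl gene, without normalization or pooling. The submitters' processing notes name FastQC, STAR, featureCounts and edgeR with GRCh38 (hg38). Strand use, molecular identifiers and the versions are not given in the sources used here. The authors' model had a repeated-measure term that is not defined and was not run here.

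Groups and replicates came from the sample labels. Genes were filtered with filterByExpr and scaled by TMM, and SFN was compared with DMSO by glmQLFit and glmQLFTest of edgeR 4.0.16 (R 4.3.3) over 13378 genes with Benjamini-Hochberg adjustment. limma 3.58.1 and DESeq2 1.42.0 served as alternatives. Standard errors were obtained from the log2 fold change and its F statistic (absolute value over the root of F). No pair of replicates differed by less than sampling noise (chi-square per degree of freedom 2.77 to 169). The fit was tested on simulated counts. Positions and canonical transcripts are those of GENCODE 44 (GRCh38).

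The 9 genes and all gene lists were chosen with earlier results of these data known. The other genes named are, of each list, at most the 4 called genes with the smallest p and a mean of at least 5 CPM, and the 5 closest to HEXIM1 in pattern. Genes given as not past the threshold were added for their role after the values were seen. Alternatives changed the scaling, the test, the filter and the libraries, added the replicate number as a block, and, chosen after seeing the data, corrected for transcript length or left out DMSO replicate 1 and SFN replicate 2 together.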

Additional observations from a re-analysis of the deposited data

Results flagged for a closer look

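In 13 of 52 groups of 5 libraries examined for the 9 genes and the other genes named with a test, 1 library stood apart from the rest, by the gap to its nearest neighbour divided by the range of the group. Chance gives about 1 in 20, or 3 of 52, and in 11 of the 13 the library was DMSO replicate 1. The groups share libraries and are not independent.

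Among the 9 genes, DMSO replicate 1 stood apart for LARP7 (0.965), where it was high, and for MEPCE (0.726), CCNT1 (0.729), CCNT2 (0.94) and AFF4 (0.787), where it was low. SFN replicate 4 stood apart for HEXIM1 (0.756), with 21.1 CPM against 17.8 to 18.6 CPM in the other SFN libraries, and it still lay far below every DMSO library.

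Among the other genes, DMSO replicate 1 was high for LEO1 (0.887), IWS1 (0.787) and BRD3 (0.764), and low for CDK12 (0.887), POLR2A (0.902) and LARP4 (0.745). SFN replicate 5 was high for POLR2A (0.72), with 109 CPM against 49.2 to 65.9 CPM in the other SFN libraries.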

How the results depend on the processing

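Over 20 alternatives, HEXIM1, HEXIM2 and CDK9 kept their direction and stayed past the threshold. The HEXIM1 log2 fold change was -2.11 with library size only, where the median of all genes was -0.111 against -0.028, and -2.07 to -2.0 with each library left out. Counts moved most when DMSO replicate 1 was left out, alone or with SFN replicate 2, and the cause was not tested. With each library left out in turn, the number of all genes increased ranged from 906 to 3058 and decreased from 1470 to 3193, of the 9 genes increased from 0 to 1 and decreased from 3 to 5, and of the other elongation genes increased from 5 to 21 and decreased from 6 to 18, the highest being without DMSO replicate 1 in each case. With both DMSO replicate 1 and SFN replicate 2 left out these counts were 3106 and 3273, 2 (LARP7 and CCNT2) and 5, and 22 and 19. Of the other elongation genes, 14 were increased by the DESeq2 Wald test, which called 1635 of all genes increased, and 12 with the length correction, which called 1606 and with which 1 of the 9 genes, CCNT2, was increased. Samples of the same number did not deviate together throughout (correlations of -0.267 to 0.484, the highest in replicate 5 and the others at most 0.0394, with 2 of 10 samples closest to their own number), and with the replicate block 911 genes were increased and 1530 decreased, the same 3 of the 9 genes were decreased, and 6 other elongation genes were decreased. ELL2 was also decreased with upper-quartile scaling and with limma-voom. Of the 17 other elongation genes named with a test, 271 values under the alternatives kept their call, 69 were no longer past the threshold and 0 changed direction. Depth limits HEXIM2, with 8 to 33 counts in the SFN libraries.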
